A study of Homo sapiens with 11 samples.

Results

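A stretch of consecutive rows in the count tables held less RNA and fewer ribosome footprints in one knockout of HEK293T cells than in the other knockout or in wild type. Each of the 11 deposited tables lists the same transcripts in the same order, and the stretch covers table lines 85001 to 87000. Its members were chosen from the RNA and footprint values of knockout 2 in these same libraries, so every knockout 2 value below describes the stretch and tests nothing about it. A member is a row, or a set of rows with identical counts in all 11 libraries, that had at least 10 counts in at least 2 of the 6 RNA libraries. There were 661 members among 57719 such features in the whole table. They stood for 817 of the 2000 rows on these lines, and 104 of them merged several rows.

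HEK293T is a human embryonic kidney line that expresses the SV40 large T antigen. The study set wild-type HEK293T cells (labelled WT, with the RNA libraries marked WT#1 and WT#2) beside CSAM-KO#1 and CSAM-KO#2, here called knockout 1 and knockout 2. CSAM is the labels' name for the cap methyltransferase whose current symbol is PCIF1, and nothing in the labels states the treatment, the edited allele or how each knockout was derived. RNA was sequenced in 2 libraries of each genotype, and ribosome footprints in 2 libraries of each knockout and 1 of wild type. All knockout 2 values come from 1 knockout line, and whether replicates were separate cultures is not stated, so p-values measure only a spread that may be technical.

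PCIF1 adds a methyl group at the N6 position of the adenosine that directly follows the cap of a messenger RNA, when that adenosine already carries a methyl group on its ribose, giving the mark called m6Am. RNA sequencing of a bulk culture counts the fragments of each transcript, while ribosome profiling counts the short pieces of messenger RNA that ribosomes protect from nuclease. The ratio of footprints to RNA, called translational efficiency, separates a change in how much RNA is present from a change in how many ribosomes it carries. In bulk cultures, fewer cells with a transcript and less of the transcript per cell cannot be told apart.

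The tables name transcripts by UCSC-style identifiers without gene names, and 0 of the 661 members matched a name in the reference tables used here. Genes, chromosomes, sequences and the roles of single members were therefore not analysed here, nor was the level of the targeted gene, and features are given by table line. Line order was used only as an address. Library totals after merging ran from 40346318 to 63551193 counts for RNA and from 8387752 to 17437453 for footprints.

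Of the 754 merged features with any count on the 2000 lines, 93 had too few RNA counts to be members. The highest mean RNA count among those 93 was 7, and 4 of them had no RNA count. Among the 661 members, 572 reached 10 counts in all 6 RNA libraries and 26 in exactly 2. The members fell into 98 blocks of 20 lines. Whether neighbouring members share reads was not tested, so members are not treated as independent of each other and counts are also given over blocks.

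The summed level of the members was lower in every knockout 2 library than in any library of the other genotypes. Summed over the 661 members, RNA stood at 8481 and 8433 CPM in the wild-type libraries, and knockout 1 held 9037 and 8985. CPM, the unit used here, is a count per size-scaled library, with each library's size adjusted by edgeR's TMM factor. The knockout 2 libraries held 5996 and 5870 CPM. Knockout 2 lay below all 4 other RNA libraries, with 0.702 times the wild-type sum and 0.658 times that of knockout 1, whereas knockout 1 held 1.07 times the wild-type sum. The SD between replicates was 33.5, 37.2 and 89.2 CPM for wild type, knockout 1 and knockout 2.

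Footprints showed the same order for knockout 2. Of the 661 members, 500 also had at least 10 counts in at least 2 footprint libraries, and 161 were too low to be tested there. Their summed footprint level was 10352 CPM in the lone wild-type library. Knockout 1 had 10660 and 10506, and knockout 2 had 7087 and 7078. The knockout 2 sums amounted to 0.684 of wild type and 0.669 of knockout 1, and knockout 1 to 1.02 of wild type. As a share of all merged counts, the 661 members took 0.983% of the wild-type footprint library, with an exact (Clopper-Pearson) 95% interval of 0.977% to 0.990%. In knockout 1 the share was 1.09% and 1.06%, and knockout 2 had 0.708% and 0.723%. The wild-type footprint level has no replicate spread, and the interval covers counting error only.

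**Figure D1:**
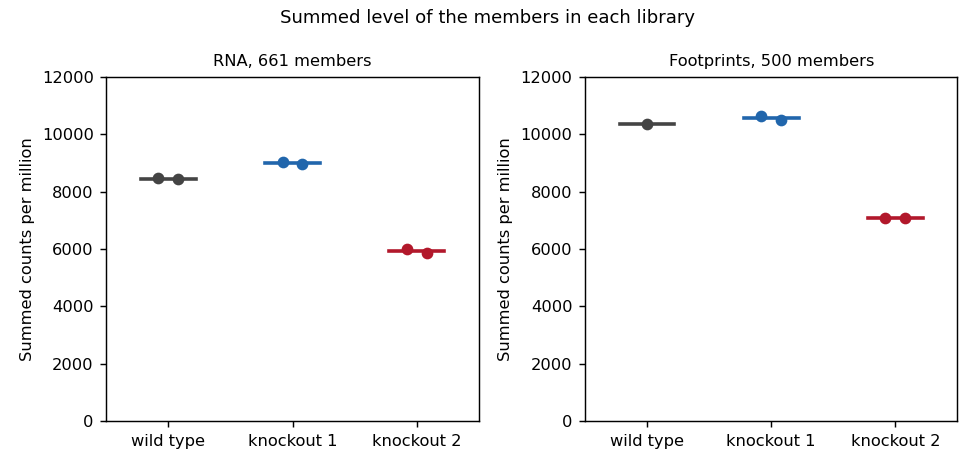
Summed level of the members in CPM (vertical axis, from 0) for each library by genotype, RNA on the left (661 members) and footprints on the right (500 members). Points are libraries and bars are group means. The knockout 2 points, 5996 and 5870 CPM for RNA and 7087 and 7078 CPM for footprints, lie below every point of the other genotypes.

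Member by member, the RNA ratio of knockout 2 to wild type had a median of -0.75 on the log2 scale, a ratio of 0.593. The middle of the distribution, from the 25th to the 75th percentile, ran from -1.06 to -0.37. Of the 661 members, 595 were below wild type and 66 were at or above it, and 190 were at or under a ratio of 0.5. Over all 57719 features the median was 0.00. Both knockout 2 libraries lay below both wild-type libraries for 540 members (81.7%) and above both for 38, while over all features the libraries separated downward in 26.2% and upward in 26.4%.

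With edgeR's quasi-likelihood test fitted on the whole table and adjusted over all features (adjusted p under 0.05), 399 members were lower and 6 higher in RNA of knockout 2 than of wild type. Over all features tested, 6.4% were lower and 5.9% were higher. The rule used this contrast, so nothing is read from that count. The 399 lower members lay in 83 of the 98 blocks (84.7%, against 16.8% of the 8304 blocks of the table).

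Set against knockout 1, the RNA of knockout 2 gave nearly the same picture. The median log2 ratio was -0.78, a ratio of 0.583, and 606 members were below knockout 1 and 55 were not. Both libraries of knockout 2 lay below both of knockout 1 for 540 members (81.7%), against 25.3% of all features. The edgeR test called 401 members lower and 4 higher, with 3.53% lower and 3.01% higher over all features. These 2 comparisons share the knockout 2 libraries and are not separate evidence.

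The footprint ratio of knockout 2 to wild type had a median of -0.77 (ratio 0.588) over 500 members, and that to knockout 1 a median of -0.84 (ratio 0.558). Footprints of 424 members were below wild type and 76 were not, while 446 were below knockout 1 and 54 were not. Both knockout 2 footprint libraries lay under both knockout 1 libraries for 402 of the 500 members (80.4%, against 25.1% of all features). In footprints of knockout 2 against wild type, edgeR called 224 members lower and 5 higher, beside 8.67% and 7.14% of all features. Against knockout 1 it called 283 lower and 0 higher, beside 4.54% and 3.78%. These counts too come from contrasts that the rule used. Beside the 0 members that edgeR called higher, 2 were higher at an unadjusted p under 0.05, and DESeq2 called 0.

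**Figure D2:**
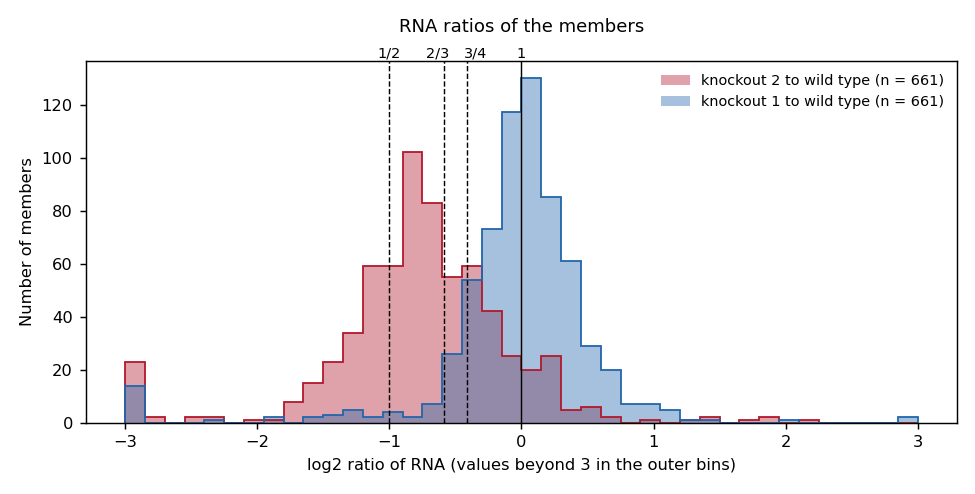
Number of members (vertical axis) by log2 ratio of RNA to wild type (horizontal axis) for knockout 2 and knockout 1, 661 members each, with lines at the ratios 1/2, 2/3, 3/4 and 1. The knockout 2 values centre on -0.75 and those of knockout 1 on 0.03.

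The contrast of knockout 1 with wild type is not among those the rule names. It shares its libraries with the contrasts that were used and with the count filter, so its calls are not independent of how the members were chosen. The RNA ratio of knockout 1 to wild type had a median of 0.03 over the 661 members, with 312 below wild type and 349 not. The edgeR test called 41 members lower and 40 higher in knockout 1, which is 12.3% of the members in either direction, against 4.26% of all features (2.08% lower and 2.18% higher). The 41 lower members lay in 17 blocks and the 40 higher in 15, or 17.3% and 15.3% of the 98 blocks, where the same shares over the table were 6.39% and 6.47% of 8304 blocks. The count of 81 became 26 (3.97%) without replicate 1 of knockout 1 and 43 (6.56%) without its replicate 2, where 1.05% and 1.32% of all features were called. In footprints, 14 members were lower and 14 higher, 5.6% against 6.04% of all features (3.64% lower and 2.4% higher), with a median of 0.07. Without replicate 2 of knockout 1, 16 footprint calls were left (3.24%, beside 4.62% of all features).

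Translational efficiency of the members moved little. The median change was -0.02 in knockout 2 and -0.02 in knockout 1 against wild type, with an SD over members of 0.58 and 0.43. Neither median kept its sign over the alternatives, which gave -0.06 to 0.06 in knockout 2 and -0.03 to 0.05 in knockout 1. For knockout 2, 31 of 500 members were lower and 10 higher in the edgeR interaction test, beside 5.5% and 2.64% of all features. Without footprint replicate 1 or 2 of knockout 2 these 41 calls became 25 and 22 (5.16% and 4.42%), beside 5.26% and 5.56% of all features. For knockout 1, edgeR called 3 lower and 0 higher, beside 1.01% and 0.191%, with 41 lower and 19 higher at an unadjusted p under 0.05; DESeq2 was not run on this term. Between the knockouts 1 was lower and 1 higher, beside 0.445% and 0.059%. Across the 500 members the RNA and footprint changes of knockout 2 had a Pearson correlation of 0.71 and a Spearman correlation of 0.63, a description over features that share libraries, depth and possibly reads.

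**Figure D3:**
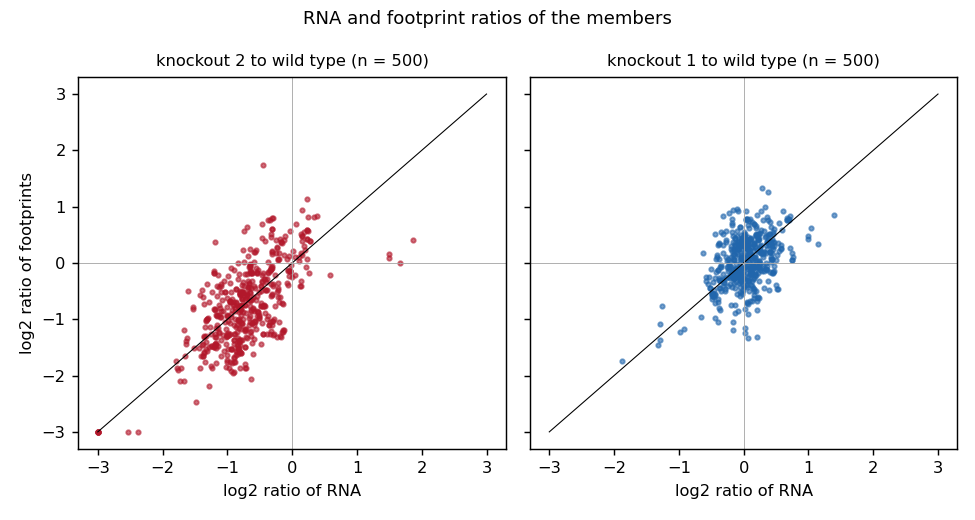
Log2 ratio of footprints (vertical axis) against log2 ratio of RNA (horizontal axis) for 500 members, knockout 2 to wild type on the left and knockout 1 to wild type on the right, with values beyond 3 drawn at the border. The diagonal marks equal ratios. Most knockout 2 points lie to the lower left (medians -0.77 for footprints and -0.75 for RNA in all members), while those of knockout 1 surround the origin.

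The edges were mapped in windows of 100 lines from line 84001 to 88000. A window was called low where its median log2 RNA ratio of knockout 2 to wild type was at or under -0.31, the 5th percentile over the 1801 windows of the table that held at least 5 features. The run of low windows, allowing gaps of at most 2 windows, went from line 85201 to line 87200. It held 18 low windows out of 20, and 16 of the 20 windows on the lines of the rule were low. Of the 91 low windows in the table, the other run with the most low windows held 5 of them.

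The first 2 windows of the rule, from line 85001 and line 85101, had medians of 0.22 and 0.11 and were not low. The window from line 85201 reached -0.36, that from 85401 reached -0.83, and that from 85901 had the lowest median of all 40 mapped windows, -1.17. Farther along, the windows from 86601, 86701 and 86801 stood at -0.80, -0.91 and -0.83. The level held past the last line of the rule, with -1.02 from line 87001 and -0.77 from line 87101, and then went to 0.19 from line 87201. The run thus began 2 windows inside the rule and ended 2 windows outside it.

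Outside the run, the other 20 mapped windows had a median of 0.08 and ran from -0.61 to 0.23. The lowest of them, from line 84501, was the 1 low window outside the run, and 8 of its 17 features were under -1 while its knockout 1 median was 0.40. Window medians of one replicate against the other stayed between -0.22 and 0.15 in RNA within the run, for wild type, knockout 1 and knockout 2. The knockout 1 medians in the run went from -0.40 to 0.38 and centred on 0.06.

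Other ratios put the edges at nearly the same lines. RNA of knockout 2 against knockout 1 gave a run from 85101 to 87200, footprints against wild type from 85201 to 87100, and footprints against knockout 1 from 85101 to 87200. With the 10th percentile as the limit, the RNA run against wild type kept its edges, and with the 1st percentile (-0.84) it shrank to lines 85701 to 87100.

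**Figure D4:**
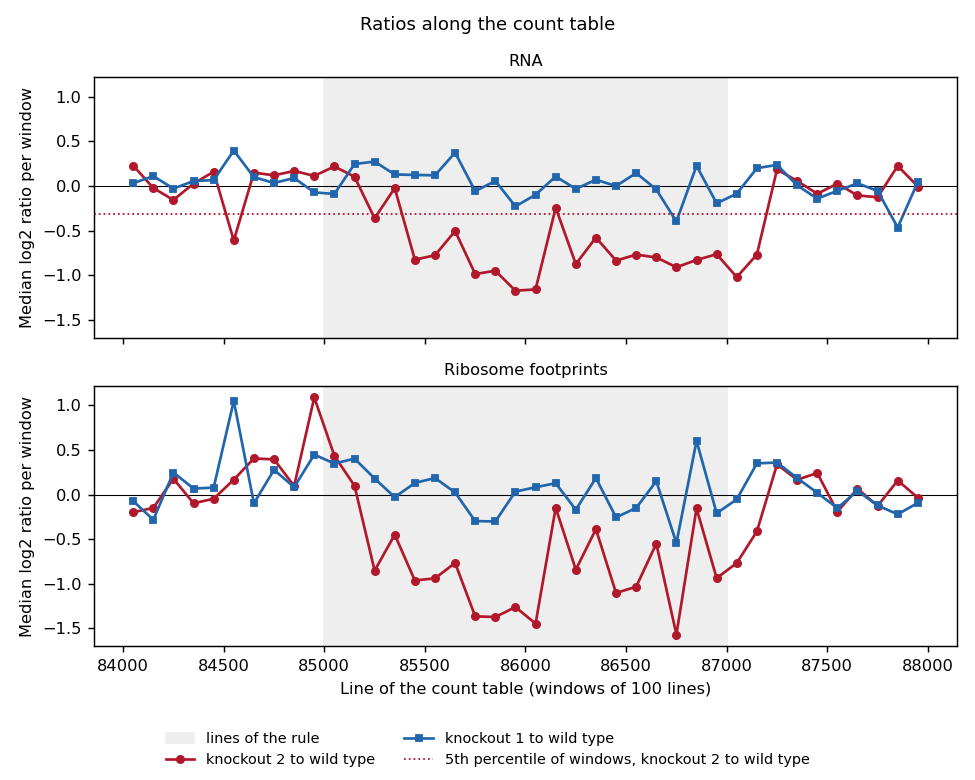
Median log2 ratio to wild type per window of 100 lines (vertical axis) along the table lines 84001 to 88000 (horizontal axis), RNA above and footprints below, for knockout 2 (circles) and knockout 1 (squares). Grey marks the lines of the rule and the dotted line the 5th percentile of RNA windows, -0.31. The knockout 2 medians drop after line 85201 and return after line 87200, with windows near -0.02 and -0.24 in between.

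Single features were also compared on the 2 sides of each step. At the start the places were set at the recurring rows described below and were not searched for. There, the 10 features up to line 85142 had a median of 0.12 and the 10 from line 85147 a median of -0.22. At line 85267 to 85274 the median of 10 features went from -0.33 to -0.89. At the far end the 10 features up to line 87196 had a median of -0.76, a ratio of 0.591, and the 10 from line 87208 a median of 0.23. Beyond the rule but before that last step lay 91 features, of which 89 were below wild type, with a median of -0.81, and edgeR called 73 of them lower. From the step to line 88000 the 254 features had a median of 0.01, and 16 were called lower. The share called lower over all features tested was 6.4%. The place of the last step was searched for in these same ratios. The counts on its 2 sides depend on that search and test nothing.

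The last line of the rule did not coincide with a change in the ratios. The 5 members just inside the first line ran from -0.47 to 0.59 with a median of -0.37, and the 5 features just outside it from 0.16 to 1.16. Just inside the last line, 5 members ran from -0.84 to -0.53, and just outside it 5 features ran from -1.92 to 0.09 with a median of -0.70.

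The places compared at the start were the limits of a group of rows that occur more than once in the table. For 33 members on lines 85147 to 85267, rows with other identifiers on lines 90280 to 90400 held identical counts in all 11 libraries, so the counts of the 2 places cannot be told apart. Only 42 features of the 57719 had such a distant copy. The 661 members thus fell into 53 before these recurring rows, the 33 themselves, 1 between them, and 574 after them.

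Their RNA ratios differed in steps. The 53 members before the recurring rows had a median log2 ratio of knockout 2 to wild type of 0.15, and 37 were not below wild type. By edgeR 0 of them were lower and 2 higher, beside 6.4% and 5.9% of all features. At an unadjusted edgeR p under 0.05, 3 were lower and 13 higher. DESeq2 called 0 lower and 0 higher among the 45 to which it gave an adjusted p. The 33 recurring members had a median of -0.31, a ratio of 0.808, and 5 were called lower. The 574 members after them had a median of -0.81, a ratio of 0.569, with 549 below wild type and 394 called lower in 80 of 85 blocks.

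In the recurring rows, knockout 1 was above wild type, with a median of 0.34. Both its libraries lay above both wild-type libraries for 24 of 33 members (all features 23.5%). The edgeR test called 5 of the 33 higher, in 2 of 7 blocks (all features 2.18% higher). The ratio of knockout 2 to knockout 1 in the recurring rows was accordingly lower, at -0.63. Against the lone wild-type library, footprints also showed 3 levels, with knockout 2 medians of 0.41 over 36 members before the recurring rows, -0.56 over 26 recurring members and -0.85 over 438 members after them. Against knockout 1 they did not, since the footprint median was 0.19 before the recurring rows, -0.93 in them and -0.87 after them.

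**Figure D5:**
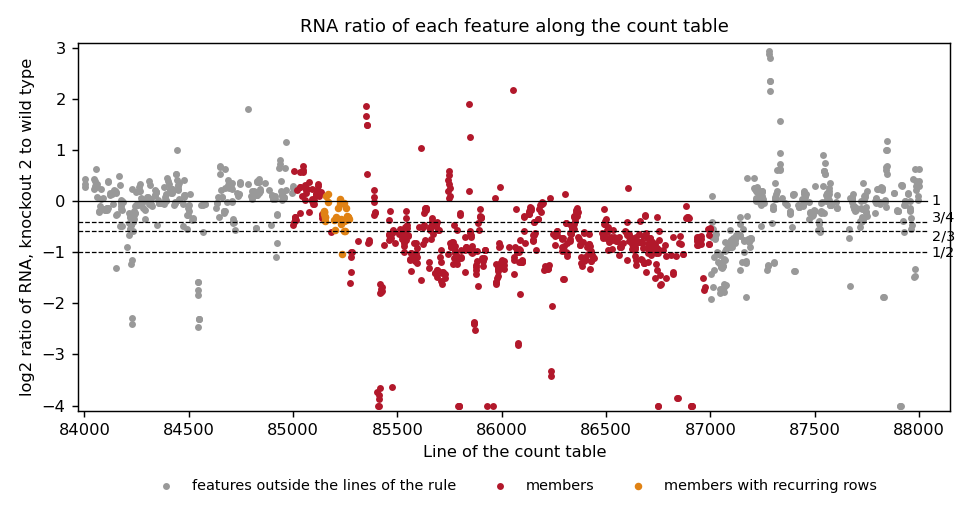
Log2 ratio of RNA in knockout 2 to wild type (vertical axis, values beyond -4 and 3 drawn at the border) for each feature along the table lines (horizontal axis), with lines at the ratios 1/2, 2/3, 3/4 and 1. Members after line 85267 form a band with a median of -0.81 that goes on to line 87196, and the 33 recurring members (orange) lie between it and the members before them.

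The members did not gather at 1 ratio. On the log2 scale, 304 of the 661 were nearest to 1/2, 149 to 2/3, 102 to 3/4 and 106 to 1. The mean absolute distance was 0.65 from 1/2, 0.62 from 2/3, 0.68 from 3/4 and 0.95 from 1, and the median of 0.593 was nearest to 2/3. The distances from 1/2 and 2/3 were thus close to each other, and the median lay between these ratios.

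Which simple ratio came closest depended on the members and on the scaling. For the 574 members after the recurring rows, 303 were nearest to 1/2 and 145 to 2/3, the mean distance was 0.61 from 1/2 and 0.63 from 2/3, and the median was nearest to 1/2. The 1000 lines on either side hold the end of the low run, up to line 87200. Scaled to the features on those lines, the same members had a median ratio of 0.580, nearest to 2/3. Scaled to the mapped lines outside the low run, an alternative chosen after seeing the data, it was 0.554, nearest to 1/2. The 33 recurring members were nearest to 3/4 in 19 cases against wild type, and nearest to 2/3 in 16 cases against knockout 1. In footprints of knockout 2 against knockout 1, 276 of the 500 members were nearest to 1/2 and the median ratio was 0.558.

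Among the 286 members with a mean of at least 5 CPM, where counting error is smaller, 104 were nearest to 1/2, 81 to 2/3, 54 to 3/4 and 47 to 1. Their SD was 0.45 around a median of -0.66 (ratio 0.635), beside an SD of 0.27 over all 26560 features of that level. After the recurring rows alone, 251 such members had a median ratio of 0.606 and an SD of 0.40, and 205 of them were called lower. Over all features of that level, 8.83% were called lower. The rule used this contrast, so nothing is read from that count.

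The ratio moved with RNA level. After the recurring rows, the 121 members under 1 CPM had a median ratio of 0.518, the 202 from 1 to 5 CPM 0.539, the 168 from 5 to 20 CPM 0.577 and the 83 with at least 20 CPM 0.674. The 83 most abundant members came from 24 blocks, and the median SE of a log2 change went from 0.47 in the lowest class to 0.09 in the highest. Over all 661 members the Spearman correlation of level and change was 0.18, and that of listed length and change was -0.03. Among members with at least 5 CPM these were 0.33 and -0.11, and with 1 member per 20 lines 0.49 and -0.08. The level is a mean over all RNA libraries, those of knockout 2 included, so it is not independent of the change. The unit of the listed length is not stated in the files.

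The windows themselves showed where the high values sat. The window from line 86101 to 86200 had a median of only -0.24, and all 35 of its members were below wild type, from -0.95 to -0.02. Its footprint median was -0.15, with 10 of 35 not below wild type. The window from line 85301 to 85400 had a median of -0.02, with 7 of its 15 members at or above wild type and the highest at 1.87. By contrast 0 members of either window were under -1, while the windows from 85901 and 86001 had medians of -1.17 and -1.16.

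Exceptions that did not fall were few past the recurring rows. Of the 66 members at or above wild type, 37 stood before the recurring rows, 4 were recurring members, and 25 came after, in 11 blocks. Those 25 had a median of 0.24 CPM, and 1 had at least 5 CPM. That member, on line 86229 and singled out after its values were seen, had 5.32 CPM on average and a log2 ratio of 0.07. In knockout 1 the median log2 ratio of the 25 to wild type was 0.73. The 25 were picked by their ratio to the same wild-type libraries, mostly at few counts. That median is therefore not independent of the choice.

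The only members past the recurring rows that edgeR called higher, 4 of the 25, lay on lines 85349 to 85355. With 1 neighbour they formed a group of 5, with 22 to 77 counts over both wild-type libraries, 35 to 95 over knockout 1 and 61 to 84 over knockout 2. Their log2 ratios ran from 0.54 to 1.87 in knockout 2, and their median in knockout 1 was 0.99. Both ratios share the low wild-type counts, so the second is not separate from the first. DESeq2 called 0 members of the stretch higher in this contrast, but gave an adjusted p to only 544 of the 661. At an unadjusted DESeq2 p under 0.05, 12 members were higher. A group of 8 on lines 85743 to 85751 had 16 to 23 counts in wild type and 17 or 18 in knockout 2, with ratios from 0.06 to 0.59 that rest on few counts. A group of 3 on lines 85844 to 85846 held 16 to 81 counts in knockout 2 and 11 to 46 in wild type, but 0 to 4 in knockout 1.

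At the other extreme, some members were nearly lost. With at least 1 CPM in wild type, 6 members in 2 places had 0 counts over both knockout 2 libraries. The 2 on lines 85409 and 85410 had 161 and 182 counts in wild type and 14 and 15 in knockout 1. The 4 on lines 86906 to 86914 had 170 to 628 counts in wild type and 1 each in knockout 1, so both knockouts were near 0 there.

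By the rule for named members, the most abundant called member was uc004dfc.4, on line 86172 with a listed length of 2545. Its RNA was 218 and 221 CPM in wild type. Knockout 1 had 239 and 244 CPM, and knockout 2 had 173 and 174. Knockout 2 lay below all other RNA libraries, with a log2 change of -0.34 ± 0.08 (SE) from wild type. Its footprints stood at 130.5 CPM in the lone wild-type library, with 163 and 156 for knockout 1 and 123 and 116 for knockout 2, a log2 change of -0.13 ± 0.11 (SE) from wild type. It lies in the window from line 86101 whose fall was small.

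The second, uc064yzb.1, stood on line 86523 with a listed length of 148 and merged 2 rows. Its RNA was 149 and 133 CPM in wild type. Knockout 1 had 152 and 157 CPM and knockout 2 had 91.4 and 81.4, with no overlap of knockout 2 and the others. The log2 change from wild type was -0.71 ± 0.09 (SE), a ratio between 2/3 and 1/2. Footprints were 153 CPM in wild type, while knockout 1 had 130 and 154 and knockout 2 had 85.8 and 79.3, a log2 change of -0.89 ± 0.11 (SE).

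The members of at least 5 CPM with the highest ratios both stood before the recurring rows. RNA of uc064xma.1 on line 85076 was 6.29 and 7.80 CPM in wild type. Knockout 1 had 9.17 and 8.32 CPM and knockout 2 had 7.81 and 10.5. The knockout 2 libraries lay above both wild-type libraries and overlapped those of knockout 1, with a log2 change from wild type of 0.38 ± 0.14 (SE) that did not pass the test (edgeR adjusted p = 0.074). It passed without wild-type replicate 2 (edgeR adjusted p = 0.016), without knockout 2 replicate 1 (0.022) and with a replicate block (0.037). RNA of uc004cmm.6 on line 85031 was 18.8 and 20.7 CPM in wild type. Knockout 1 had 24.0 and 22.4 CPM, and knockout 2 had 23.4 and 24.6. Its log2 change in knockout 2, 0.28 ± 0.09 (SE), passed the edgeR test (adjusted p = 0.045) but not that of DESeq2 (adjusted p = 0.10). It also missed the edgeR threshold without wild-type replicate 1, or without either replicate of knockout 1 or of knockout 2, with adjusted p from 0.085 to 0.25. In knockout 1, whose libraries also entered the naming rule through the mean level, the edgeR adjusted p of the 4 named members against wild type was 0.42, 0.50, 0.24 and 0.18 in the order given here.

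Other measures of the members were set beside those of all features and of the neighbouring lines. Their median listed length was 280, against 225 over all features and 300 on the 1000 lines on either side. The median of the mean RNA level was 3.90 CPM, against 4.20 over all features and 5.66 on either side. Enough footprint counts for a test were found in 75.6% of members, against 76.4% of all features and 86.1% on either side. In wild type the median log2 ratio of footprint to RNA level was -0.20 for the members and -0.16 for all features. These are descriptions without a test.

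Set against other stretches of 1000 lines, the 2 that make up the rule had the lowest medians of all 183 in RNA of knockout 2 to wild type, -0.79 and -0.62. The 181 others ran from -0.30 to 0.22. The same 2 stretches ranked lowest in RNA of knockout 2 to knockout 1 and in both footprint ratios of knockout 2. In RNA of knockout 1 to wild type they ranked 85 and 167 from the lowest. Since the rule picked these lines for that contrast, the rank describes the choice.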

How the data were processed

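RNA and ribosome footprints were sequenced in 11 libraries of HEK293T cells. The authors deposited 1 table per library with 182398 rows, each with a whole-number count per transcript, not normalised, and a listed length of unstated unit. Per the submitters' processing notes, CASAVA 1.8, Bowtie2 2.1.0, TopHat2 2.0.9 and the build hg38 were used, with no role given. The counting program and its treatment of reads shared by transcripts are not given in the sources used here. Of 82937 rows with a count, those with identical counts in all libraries were merged to 66016 features. In each assay, features that reached 10 counts in 2 or more libraries were tested with edgeR 4.0.16 in R 4.3.3 (TMM factors, robust quasi-likelihood, two-sided, Benjamini-Hochberg over all features, threshold 0.05), with 1 fit of 3 genotypes per assay and no block. Wild-type footprints, with 1 library, borrowed the spread of the knockout libraries. Translational efficiency was the interaction in 1 fit over 11 libraries. The SE of a log2 change was derived as its absolute value divided by the square root of the quasi-likelihood F statistic. The fits were tested on simulated data with known changes. Window medians, ratio classes and counts are descriptions without a test. Each step at the start is taken at the recurring rows, and that at the end is the split of the features with the smallest summed absolute distance from the medians on its sides.

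The members and lists were chosen with earlier results of these data known. The 2 members that fell were named by the highest mean CPM among those called lower, and 2 that did not by the highest log2 change among those with at least 5 CPM, more than 20 lines apart within each pair. Alternatives were DESeq2 1.42.0 and its size factors, other count filters, unmerged rows, 1 member per 20 lines, a replicate block and leaving out each replicate. Alternatives that left out the recurring rows, kept only members on the low run, or scaled to the mapped lines outside the low run were chosen after seeing the data.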

Additional observations from a re-analysis of the deposited data

How the results depend on the processing

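Leaving out each replicate in turn, the share of members called lower was 51.9% to 59.2% for RNA of knockout 2 against wild type (60.4% with all libraries), 41.9% to 65.7% against knockout 1 (60.7%), 34.2% to 48.8% for footprints of knockout 2 against wild type (44.8%) and 40.2% to 52.2% against knockout 1 (56.6%). The share called in either direction was 3.97% to 12.6% for RNA of knockout 1 (12.3%), 3.24% to 8.06% for its footprints (5.6%, lowest without its replicate 2), 4.42% to 9.6% for translational efficiency of knockout 2 (8.2%) and 0% to 1.0% for that of knockout 1 (0.6%). Without footprint replicate 1 or 2 of knockout 2, translational efficiency gave 25 and 22 calls in place of 41. For knockout 1 it gave 3 calls, 0 without its footprint replicate 2, 5 without wild-type RNA replicate 1, and 1 without either RNA replicate of its own.

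With a mean count of at least 50 the shares were 12.6% for footprints of knockout 1, 18.0% and 1.15% for translational efficiency of knockouts 2 and 1, where 10.9%, 13.4% and 1.98% of all features were called. With 1 member per 20 lines, that with the highest total count in its block, they were 8.70%, 14.1% and 1.09%. Over all features, which were not thinned in this way, 6.04%, 8.15% and 1.20% were called. DESeq2 gave an adjusted p to fewer footprint members and called 92 of 214 lower in knockout 2 against wild type (edgeR 224 of 500), 127 of 290 against knockout 1 (283 of 500) and 8 of 119 in either direction in knockout 1 (28 of 500), beside 6.10%, 1.75% and 7.52% of all features given one. Relative to the lines on either side, and to the mapped lines outside the low run, the median ratio of knockout 2 to wild type was 0.605 and 0.578 in RNA and 0.585 and 0.553 in footprints. The lines on either side hold the end of the low run. The 1st percentile moved the first line of the run to 85701. All other alternatives with all replicates kept the shares within 1.5 times those of the main fit. Over these and the other alternatives with all replicates, the median log2 change of knockout 2 from wild type stayed between -0.80 and -0.73 in RNA and between -0.85 and -0.64 in footprints, and neither changed sign. The median of translational efficiency took both signs, from -0.06 to 0.06 in knockout 2 and from -0.03 to 0.05 in knockout 1 with single replicates left out as well, and the RNA median of knockout 1 was -0.0016 without its replicate 2.

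The replicate numbers did not pair the libraries: replicate differences of 2 genotypes correlated across features with r = -0.07 to 0.12 in RNA and -0.01 in footprints. With a replicate block, 63.5% of members were lower in RNA of knockout 2 against wild type, 63.4% against knockout 1, and 56.9% in footprints against knockout 1, and 15.3% were called in RNA of knockout 1. The shares of all features under the block were 7.78%, 4.50%, 4.55% and 6.12%.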
